A study of Mus musculus with 15 samples.

Results

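The tissue inhibitors of metalloproteinases Timp1, Timp2, Timp3 and Timp4 and the matrix metalloproteinases Mmp2, Mmp3 and Mmp14 were followed in mouse ventricle. They are 7 of the 36653 genes in the deposited expression table and were taken by symbol, through the Ensembl identifier of each row. All 7 had a mean over the libraries above the level needed for testing. The libraries came from C57BL/6 wild-type mice aged 10 weeks. In the first group, called AngII plus OA, mice carried a subcutaneous pump that released angiotensin II at 1000 ng/kg/min, and each received oleic acid daily (160 mg/kg in a volume of 0.3 mL). The AngII group carried the same pump without oleic acid, and the vehicle group received saline. Each group had 5 biological replicates, and no group received oleic acid without angiotensin II, so an effect of oleic acid on its own was not measured. The sources used here do not give the sex of the mice or the number of days on the pump.

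Matrix metalloproteinases are zinc enzymes that cut collagens, proteoglycans and other proteins of the extracellular matrix, and most are made as inactive proenzymes. The TIMPs are secreted proteins that block the active site of these enzymes, and they also take part in activation: at the cell surface, TIMP2 bridges the membrane-anchored MMP14 to pro-MMP2, which a free MMP14 molecule then cuts. In the heart the balance between these proteins bears on how the matrix is rebuilt under pressure load, and angiotensin II is widely used to bring on hypertrophy and fibrosis in mice. The table holds transcript levels, so neither protein amount nor enzyme activity was measured.

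Levels are in FPKM, fragments scaled to transcript length and to the depth of the library. The depth the authors scaled by was between 24.5 and 28.3 M reads, as recovered from the steps of the low FPKM values. Differences were tested with limma on log2(FPKM + 1) over 13121 genes with a mean of at least 0.5 FPKM, in 1 fit of all 15 libraries, with a call where the p adjusted after Benjamini and Hochberg was under 0.05. Fold changes on this scale understate the change of low genes. All 11 cardiomyocyte markers were above 0 in each library. The library of AngII replicate 2 stood apart from the other 14: it had the lowest summed level of the cardiomyocyte markers (16643 FPKM, against 27498 to 36641 FPKM elsewhere) and the highest sums of the atrial, adipocyte, mesothelial and B cell markers. Values that move by over 1.5 times without it are given with and without it. These are bulk samples, so fewer cells of a type and less RNA per cell cannot be told apart.

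In AngII hearts, Timp1 and Mmp2 rose against vehicle, and they were the 2 of the 7 genes called. Timp1 encodes a broad inhibitor of secreted metalloproteinases, and Mmp2 encodes gelatinase A, which digests denatured collagen and basement membrane collagen. The log2 change was 2.43 for Timp1 and 1.38 for Mmp2, and for both genes each AngII library lay above each vehicle library. Over all genes tested, 1.27% were called higher and 3.13% had AngII libraries that all lay above the vehicle libraries. All 7 genes had a positive change, as did 65.7% of all genes tested. The median change was 0.66 over the 7 genes and 0.07 over all genes tested. None of the 7 genes changed sign in this comparison under any alternative scaling, filter or pseudocount run, or when any single library was left out.

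In AngII plus OA hearts, none of the 7 genes was called against AngII or against vehicle by limma, and neither was any other gene, so the share called was 0% in both comparisons. At an unadjusted p under 0.05, 2 of the 7 genes passed against AngII (Mmp2 and Mmp14, both lower), beside 6.6% of all genes in either direction and 5.25% lower, and 2 passed against vehicle (Timp1 and Mmp2, both higher), beside 3.36% of all genes. The smallest limma adjusted p of any gene was 0.574 against AngII and 0.926 against vehicle. Both comparisons share libraries with the first one and with each other, so their values are given side by side and not as independent results.

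**Figure D1:**
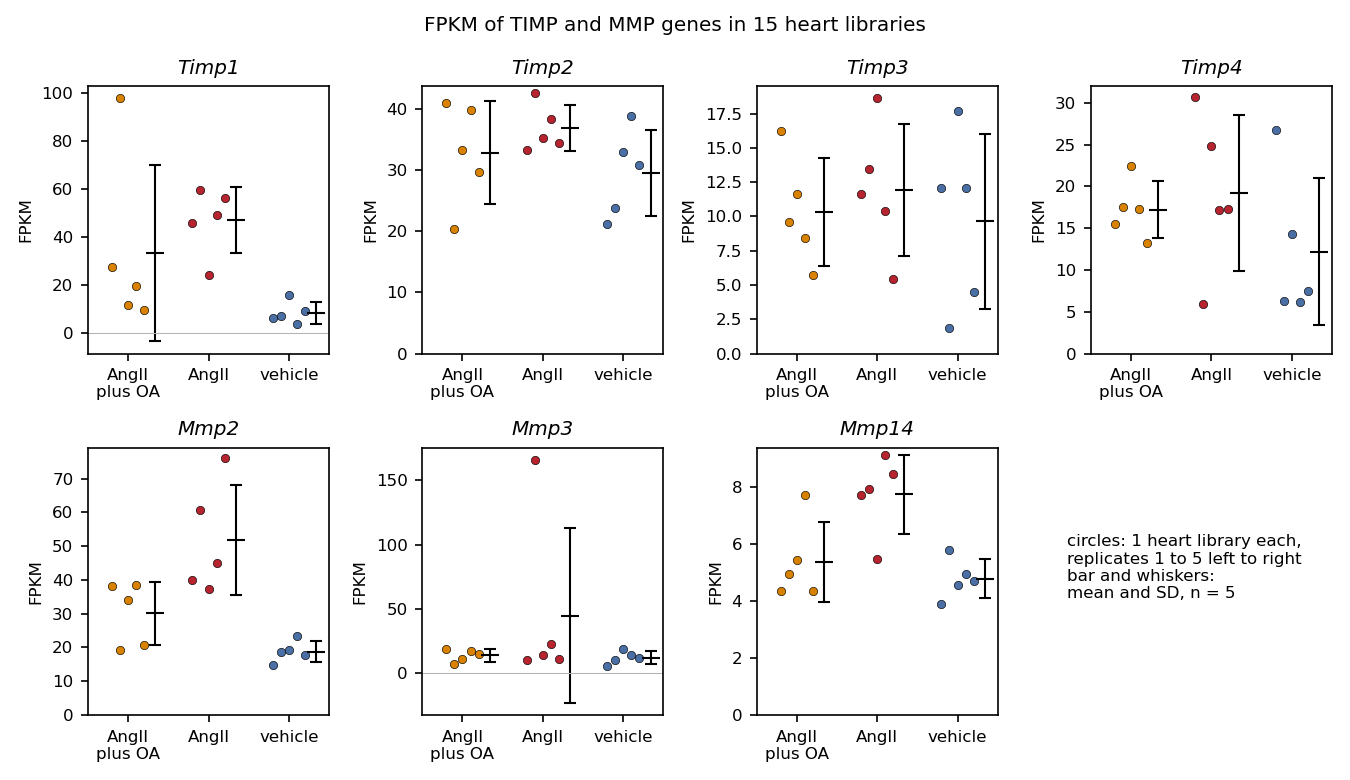
FPKM of each of the 7 genes (vertical axes, linear, each with its own range) in the 15 libraries, as points, for AngII plus OA, AngII and vehicle; the bar and whiskers are the mean and SD of 5 libraries. Timp1 and Mmp2 are the genes whose AngII points all lie above the vehicle points, and the single points far from their group are Timp1 in AngII plus OA replicate 2 (97.9 FPKM) and Mmp3 in AngII replicate 2 (166 FPKM).

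Timp1 (ENSMUSG00000001131, chromosome X) showed the largest change of the 7 genes. Its level was 27.6, 97.9, 11.7, 19.6 and 9.79 FPKM in the AngII plus OA libraries, replicates 1 to 5. It was 45.9, 59.8, 24.4, 49.4 and 56.5 FPKM in the AngII libraries. It was 6.35, 6.97, 15.9, 3.57 and 9.21 FPKM in the vehicle libraries. The lowest AngII library was thus above the highest vehicle library, while the AngII plus OA libraries ran from within the vehicle range to above every AngII library. The group means were 33.3 ± 36.8 FPKM in AngII plus OA, 47.2 ± 13.9 FPKM in AngII and 8.40 ± 4.65 FPKM in vehicle (SD, n = 5 each).

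Against vehicle, the log2 change of Timp1 in AngII was 2.43 with a standard error of 0.50 and a 95% interval of 1.37 to 3.49 (limma, adjusted p = 0.0287). The call was made in 8 of 15 fits that each left out 1 library, and it was lost without AngII replicate 1, 4 or 5 or without vehicle replicate 1, 2, 4 or 5, with an adjusted p of at most 0.0772 and a change that stayed between 2.20 and 2.67. It was also lost with no filter on low values, where more genes were tested (limma, adjusted p = 0.0750). The change in AngII plus OA was -0.94 against AngII, with an interval of -2.0 to 0.11 (limma, adjusted p = 0.737). It was 1.49 against vehicle, with an interval of 0.43 to 2.54, and this missed the threshold after adjustment. AngII plus OA replicate 2 decided the size of both values. Without that library the change was -1.45 against AngII (limma, adjusted p = 0.899) and 0.97 against vehicle, again past no threshold after adjustment. That library had the lowest summed macrophage level of its group (366 FPKM) and the lowest summed fibroblast level (968 FPKM). Its atrial (52.1 FPKM) and adipocyte (0.686 FPKM) sums were also the lowest of its group, and its cardiomyocyte sum (36641 FPKM) was the highest of all libraries. The part of cell content in its Timp1 value was not tested.

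The sequence upstream of Timp1 is shown because the gene rose most, and because it is a textbook target of AP-1 and ETS factors in the mouse. The window of 250 bases before the RefSeq start is chrX:20869916-20870165 (GRCm38.p6, plus strand), with the letters AGGAAG, an ETS (PEA3) motif, in capitals. A shorter stretch after the start, chrX:20870184-20870206, holds the AP-1-like letters TGAGTAA in capitals.
Timp1 upstream: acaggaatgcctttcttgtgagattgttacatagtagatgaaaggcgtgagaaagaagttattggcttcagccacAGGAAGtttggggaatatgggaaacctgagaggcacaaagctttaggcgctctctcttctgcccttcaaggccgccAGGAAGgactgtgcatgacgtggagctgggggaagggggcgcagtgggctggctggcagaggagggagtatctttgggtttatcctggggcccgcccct
Timp1 AP-1-like site: tgggtggaTGAGTAAtgcgtcca
The AGGAAG motif began 175 and 99 bases before the start and again at base 41 after it, and TGAGTAA began at base 27 after it. Searched on both strands in windows of 300 bases, AGGAAG was found in 35.4% and TGAGTAA in 2.68% of 32851 mouse promoters. Of the 6 genes present in the promoter table, Timp1 was the one with TGAGTAA. A match describes the letters of the window and was not tested as a binding site.

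Timp2 (ENSMUSG00000017466, chromosome 11), which encodes the inhibitor that also serves pro-MMP2 activation, varied little in AngII. It stood at 41.1, 20.3, 33.3, 39.9 and 29.8 FPKM in AngII plus OA libraries. It stood at 33.4, 42.7, 35.2, 38.5 and 34.5 FPKM in AngII libraries, and at 21.3, 23.8, 33.0, 38.9 and 30.9 FPKM in vehicle libraries. The 3 groups overlapped, and AngII had the narrowest spread, with an SD of 3.77 FPKM against 7.10 FPKM in vehicle. The log2 change in AngII against vehicle was 0.33 (limma, adjusted p = 0.387), and it was -0.20 in AngII plus OA against AngII (limma, adjusted p = 0.834). Across the 15 libraries Timp2 followed the summed level of 10 fibroblast markers, with a Pearson r of 0.938 and a Spearman rho of 0.843 on libraries that share groups and scaling. Timp2 also moved with the macrophage sum (r = 0.698, rho = 0.604), the atrial sum (r = 0.690, rho = 0.543) and the adipocyte sum (r = 0.665, rho = 0.643). The fibroblast sum ran from 968 to 2086 FPKM in AngII plus OA, from 1332 to 1854 FPKM in AngII and from 878 to 1529 FPKM in vehicle.

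Timp3 (ENSMUSG00000020044, chromosome 10) encodes the inhibitor that binds to the matrix and also blocks ADAM17. Its level was 16.2, 9.57, 11.6, 8.45 and 5.72 FPKM in AngII plus OA libraries. It was 11.6, 13.5, 18.7, 10.4 and 5.43 FPKM in AngII libraries, and 12.1, 1.88, 17.7, 12.1 and 4.52 FPKM in vehicle libraries. Each group held both high and low libraries and the groups overlapped throughout. The log2 change was 0.47 in AngII against vehicle (limma, adjusted p = 0.629), and it was 0.07 without vehicle replicate 2, the library at 1.88 FPKM. The change in AngII plus OA was -0.17 against AngII (-0.11 without AngII replicate 2) and 0.31 against vehicle.

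Timp4 (ENSMUSG00000030317, chromosome 6) encodes the inhibitor known for its high level in heart. It measured 15.5, 17.5, 22.4, 17.2 and 13.2 FPKM in AngII plus OA libraries. It measured 30.6, 5.88, 24.8, 17.2 and 17.3 FPKM in AngII libraries, and 26.8, 6.31, 14.3, 6.18 and 7.50 FPKM in vehicle libraries. AngII plus OA was the most even group, with an SD of 3.41 FPKM against 9.31 FPKM in AngII and 8.80 FPKM in vehicle, and all groups overlapped. The lowest AngII library was replicate 2, which was also the highest for Mmp3. The log2 change was 0.66 in AngII against vehicle (limma, adjusted p = 0.426), and 1.01 without AngII replicate 2 (limma, adjusted p = 0.131). Between AngII plus OA and AngII it was -0.00343 (-0.35 without AngII replicate 2), and its sign changed with the pseudocount and with the scaling.

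Mmp2 (ENSMUSG00000031740, chromosome 8) had the steadiest change. Its level was 38.1, 19.1, 34.0, 38.4 and 20.7 FPKM in AngII plus OA libraries. It was 39.9, 60.7, 37.2, 45.0 and 76.1 FPKM in AngII libraries, and 14.8, 18.7, 19.1, 23.3 and 17.6 FPKM in vehicle libraries. Every AngII library was above every vehicle library, and the vehicle libraries lay close together. In AngII plus OA, 3 libraries lay between 34.0 and 38.4 FPKM, near the low end of AngII, and the other 2 lay within the vehicle range. The means were 30.1 ± 9.45 FPKM in AngII plus OA, 51.8 ± 16.4 FPKM in AngII and 18.7 ± 3.10 FPKM in vehicle (SD, n = 5 each).

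The log2 change of Mmp2 in AngII against vehicle was 1.38 with a standard error of 0.23 and an interval of 0.90 to 1.87 (limma, adjusted p = 0.0127). It was called in each of the 15 fits that left out 1 library, with a change of 1.23 to 1.49 and an adjusted p of 0.00605 to 0.0353. Against AngII, Mmp2 in AngII plus OA had a change of -0.77, with an interval of -1.26 to -0.29 that left out 0 before adjustment, but the adjusted p by limma was 0.706. Against vehicle the change was 0.61, with an interval of 0.13 to 1.10, and missed the threshold after adjustment. The Mmp2 level moved with the summed level of 12 macrophage markers, which ran from 366 to 618 FPKM in AngII plus OA, from 486 to 729 FPKM in AngII and from 303 to 418 FPKM in vehicle. Of these 12 markers, 5 were called higher in AngII against vehicle, beside 1.27% of all genes tested. None of the 12 was at 0 in any library, and their part in the result was not tested. Of the 10 fibroblast markers, 1 was called higher. The Pearson r between Mmp2 and the macrophage sum over 15 libraries was 0.847 and the Spearman rho was 0.868. Mmp2 also moved with the fibroblast sum (r = 0.666, rho = 0.661) and the endothelial sum (r = 0.653, rho = 0.618). These values are pooled over the groups, so shifts between groups enter them.

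Mmp3 (ENSMUSG00000043613, chromosome 9) encodes stromelysin 1, which cuts proteoglycans and activates other pro-MMPs. It stood at 19.0, 6.85, 11.1, 17.4 and 14.5 FPKM in AngII plus OA libraries. It stood at 10.0, 166, 14.1, 22.5 and 11.1 FPKM in AngII libraries, and at 5.47, 9.83, 18.8, 13.8 and 11.9 FPKM in vehicle libraries. Apart from AngII replicate 2, all libraries fell between 5.47 and 22.5 FPKM and the groups overlapped. The log2 change in AngII against vehicle was 0.98 with that library (limma, adjusted p = 0.422) and 0.28 without it (limma, adjusted p = 0.705). Between AngII plus OA and AngII it was -0.77 with that library (limma, adjusted p = 0.789) and -0.07 without it (limma, adjusted p = 0.971).

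The same AngII library held the highest sums of 4 marker lists. The summed level of 6 adipocyte markers was 302 FPKM there, and the ranges were 0.686 to 23.6 FPKM in AngII plus OA and 0.278 to 11.0 FPKM in vehicle. Another AngII library, replicate 4, was second in both the adipocyte sum (88.7 FPKM) and Mmp3 (22.5 FPKM). The 6 mesothelial markers summed to 88.9 FPKM in AngII replicate 2, against at most 17.4 FPKM in AngII plus OA and 7.94 FPKM in vehicle. The 6 atrial markers summed to 3127 FPKM there, against at most 689 FPKM in AngII plus OA and 763 FPKM in vehicle. None of the markers of these 3 lists was at 0 in that library, while up to 3 adipocyte and up to 3 mesothelial markers were at 0 in other libraries. Their part in the Mmp3 value was not tested. Without AngII replicate 2, Mmp3 and the adipocyte sum still ranked alike over the other 14 libraries, with a Spearman rho of 0.824. This was not particular to the adipocyte markers: over the same 14 libraries rho was 0.789 with the fibroblast sum and 0.631 with the atrial sum. The Pearson r was 0.864 with the adipocyte sum, 0.857 with the fibroblast sum and 0.775 with the atrial sum.

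The Mmp3 upstream window is shown because this gene differed most between libraries of 1 group. It is chr9:7445572-7445821 (GRCm38.p6, plus strand), and capitals mark AGGAAG, the AP-1 consensus TGANTCA and the TATA letters TATAAA.
Mmp3 upstream: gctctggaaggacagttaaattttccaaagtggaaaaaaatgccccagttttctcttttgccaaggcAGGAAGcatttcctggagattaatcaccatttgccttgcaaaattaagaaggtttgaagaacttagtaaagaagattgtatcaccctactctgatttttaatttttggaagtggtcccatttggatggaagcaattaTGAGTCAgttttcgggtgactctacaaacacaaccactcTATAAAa
The TGANTCA match began 46 bases and TATAAA 7 bases before the RefSeq start. TGANTCA was found in 7.81% and TATAAA in 13.6% of the 32851 promoter windows, and Mmp3 was the one of the 6 genes with either. The AP-1 genes on the list of inducers did not pass the test in AngII against vehicle. Of these, Fos averaged 5.54 ± 3.46 FPKM in AngII and 16.0 ± 8.26 FPKM in vehicle (SD, n = 5 each, limma adjusted p = 0.207). Fos was picked after its values were seen, and the AP-1 genes did not all run its way. Jund ran from 5.79 to 17.4 FPKM in AngII and from 5.60 to 11.4 FPKM in vehicle. The part of AP-1 in the Mmp3 level was not tested.

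Mmp14 (ENSMUSG00000000957, chromosome 14) encodes the membrane-anchored enzyme that activates pro-MMP2 and cuts fibrillar collagen. Its level was 4.35, 4.93, 5.44, 7.70 and 4.33 FPKM in AngII plus OA libraries. It was 7.72, 7.92, 5.46, 9.11 and 8.44 FPKM in AngII libraries, and 3.88, 5.77, 4.56, 4.94 and 4.69 FPKM in vehicle libraries. Of the AngII libraries, 4 lay above every vehicle library, and replicate 3 lay within the vehicle range. Replicate 4 of AngII plus OA lay within the AngII range and the other 4 libraries lay below every AngII library.

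The log2 change of Mmp14 in AngII against vehicle was 0.59 with an interval of 0.27 to 0.90, and it missed the threshold (limma, adjusted p = 0.0633). It passed without AngII replicate 3 (limma, adjusted p = 0.0172) and without AngII plus OA replicate 4 (limma, adjusted p = 0.0378). Against AngII, Mmp14 in AngII plus OA had a change of -0.47 with an interval of -0.78 to -0.15 (limma, adjusted p = 0.706). The change against vehicle was 0.12. Mmp14 was the lowest of the 7 genes by mean level in each group.

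The Mmp14 upstream window is shown for comparison with Mmp3, the secreted enzyme that differed most between libraries of 1 group. Within a group, the highest Mmp14 library was at most 1.78 times the lowest, against 16.6 times for Mmp3 in AngII. It is chr14:54431348-54431597 (GRCm38.p6, plus strand), with AGGAAG in capitals.
Mmp14 upstream: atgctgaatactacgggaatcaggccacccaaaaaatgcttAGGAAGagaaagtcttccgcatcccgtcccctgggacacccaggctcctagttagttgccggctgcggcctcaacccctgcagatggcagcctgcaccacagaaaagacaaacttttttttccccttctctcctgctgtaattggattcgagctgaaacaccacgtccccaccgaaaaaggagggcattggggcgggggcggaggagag
The AGGAAG match began 209 bases before the start. Neither TGANTCA nor TATAAA was found in the 300-base window of Mmp14, and its GC box letters GGGCGG, present in 35.7% of windows, began 19 and 13 bases before the start.

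**Figure D2:**
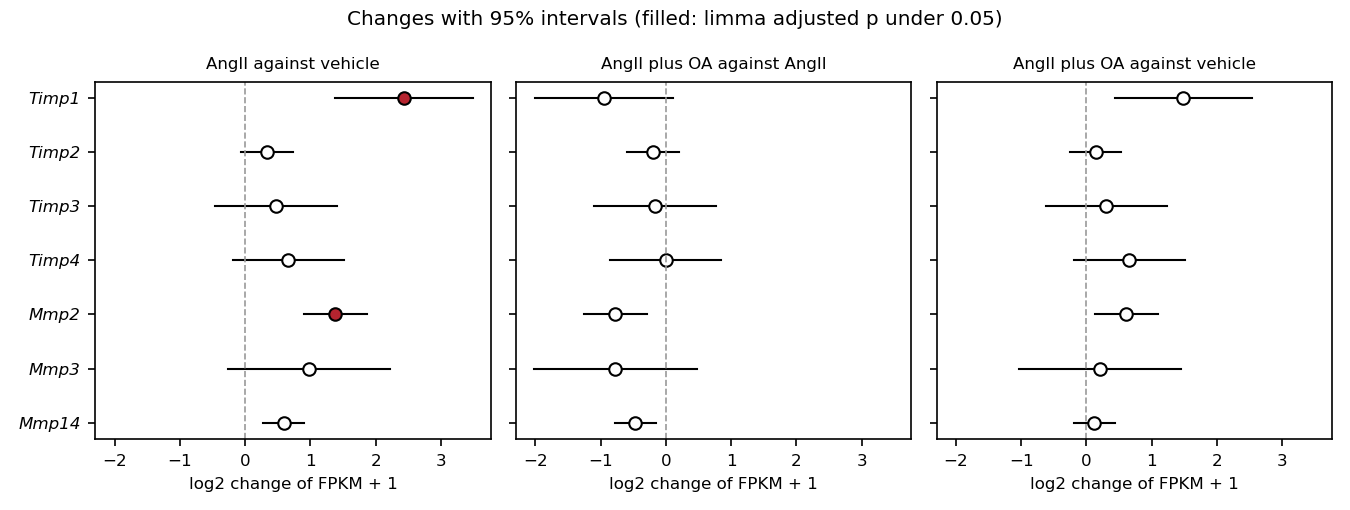
Log2 change of FPKM + 1 of the 7 genes with 95% intervals from limma (horizontal axis) in the 3 comparisons; filled points mark an adjusted p under 0.05 and the dashed line marks 0. In AngII against vehicle all 7 points lie above 0, as did 65.7% of all genes tested. The intervals of Timp1 (1.37 to 3.49) and Mmp2 (0.90 to 1.87) lie farthest from 0 there. In AngII plus OA against AngII all 7 points lie below 0, Timp4 at -0.00343, as did 63.4% of all genes tested. The AngII libraries are shared by these comparisons.

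The order of the genes by mean level differed between groups. In AngII plus OA the order from the highest was Timp1, Timp2, Mmp2, Timp4, Mmp3, Timp3 and Mmp14, and each gene overlapped its neighbour. The first place of Timp1 rested on replicate 2: without that library its mean was 17.2 ± 8.16 FPKM (SD, n = 4), which placed it after Timp2 and Mmp2. The means without a library were chosen after seeing the data. In AngII it was Mmp2, Timp1, Mmp3, Timp2, Timp4, Timp3 and Mmp14, and the libraries of Timp2 all lay above those of Timp4, the one step without overlap. The third place of Mmp3 rested on AngII replicate 2: without it the Mmp3 mean was 14.4 ± 5.66 FPKM (SD, n = 4), which placed it after Timp2 and Timp4. In vehicle it was Timp2, Mmp2, Timp4, Mmp3, Timp3, Timp1 and Mmp14, again with overlap at each step. Timp1 was therefore next to last of the 7 in vehicle and second in AngII.

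Set against each other on the FPKM scale, the TIMP transcripts changed in make-up. Timp1 was 29.9 ± 21.6% of the summed FPKM of the 4 TIMP genes in AngII plus OA, 40.6 ± 10.7% in AngII and 14.1 ± 6.04% in vehicle (SD, n = 5 each). The share ran from 23.7 to 49.6% in AngII and from 5.89 to 19.7% in vehicle, so these groups did not overlap, while AngII plus OA ran from 14.8 to 67.4%. The mean share in AngII plus OA was 20.5 ± 5.84% without its replicate 2 (SD, n = 4). Timp2 held the largest mean share in vehicle, 51.5 ± 14.2%, and 32.1 ± 3.13% in AngII. The sum of the 4 TIMP genes was 93.7 ± 32.6 FPKM in AngII plus OA, 115 ± 7.64 FPKM in AngII and 59.8 ± 15.6 FPKM in vehicle.

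The sum of Mmp2, Mmp3 and Mmp14 was 49.2 ± 14.0 FPKM in AngII plus OA, 104 ± 74.6 FPKM in AngII and 35.5 ± 7.52 FPKM in vehicle. Divided by the TIMP sum of the same library, it gave a ratio of 0.578 ± 0.210 in AngII plus OA, 0.891 ± 0.594 in AngII and 0.624 ± 0.193 in vehicle. The ratio overlapped between all groups, and its highest value, 1.93, was that of AngII replicate 2. Without that library the AngII sum was 71.7 ± 18.4 FPKM and the AngII ratio 0.633 ± 0.159 (SD, n = 4). A narrower ratio, chosen after the values were seen, set the sum of Mmp2 and Mmp14 over Timp2, the 3 partners of pro-MMP2 activation. It was 1.08 ± 0.147 in AngII plus OA, 1.62 ± 0.485 in AngII and 0.814 ± 0.136 in vehicle. Its lowest AngII value, 1.21, lay above the highest AngII plus OA value, 1.19, and above the highest vehicle value, 1.03. Because of how it was chosen, the ratio has no test. By level, 0 of the 7 genes had AngII plus OA libraries that all lay apart from the AngII libraries. The share of all genes tested that lay apart in this comparison is not given here. The count therefore has no background to be read against.

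**Figure D3:**
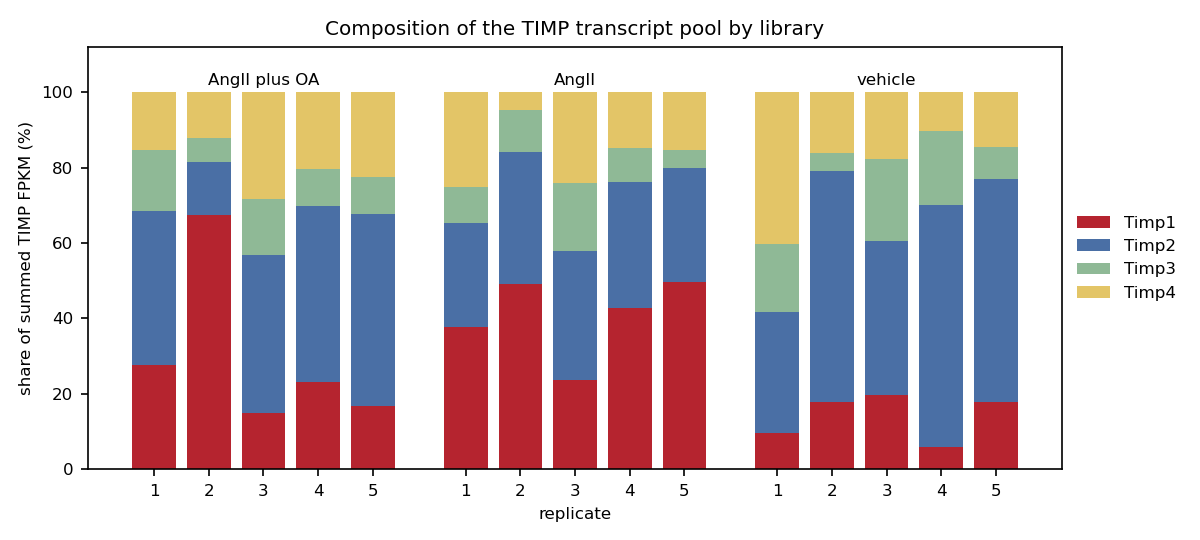
Share of each TIMP gene in the summed FPKM of the 4 TIMP genes in each of the 15 libraries (stacked bars, percent, from 0), ordered AngII plus OA, AngII and vehicle. The Timp1 share runs from 14.8 to 67.4% in AngII plus OA, from 23.7 to 49.6% in AngII and from 5.89 to 19.7% in vehicle.

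Some of the 7 genes varied together over the libraries, which share their groups and scaling. Mmp2 and Mmp14 had a Pearson r of 0.80 and a Spearman rho of 0.761 over 15 libraries, and r was 0.511 after each group's mean was taken out. Timp2 and Mmp2 had an r of 0.698, which was 0.685 with the group means taken out. Timp1 and Mmp2, the genes called in AngII, had an r of 0.623 that came to -0.096 once the group means were taken out. The Spearman rho of this pair with the group means taken out was 0.136. AngII plus OA replicate 2 had the highest Timp1 level (97.9 FPKM) and the lowest Mmp2 level (19.1 FPKM) of its group. The values with group means taken out were not computed without that library, so they do not settle whether the 2 genes varied together within groups.

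**Figure D4:**
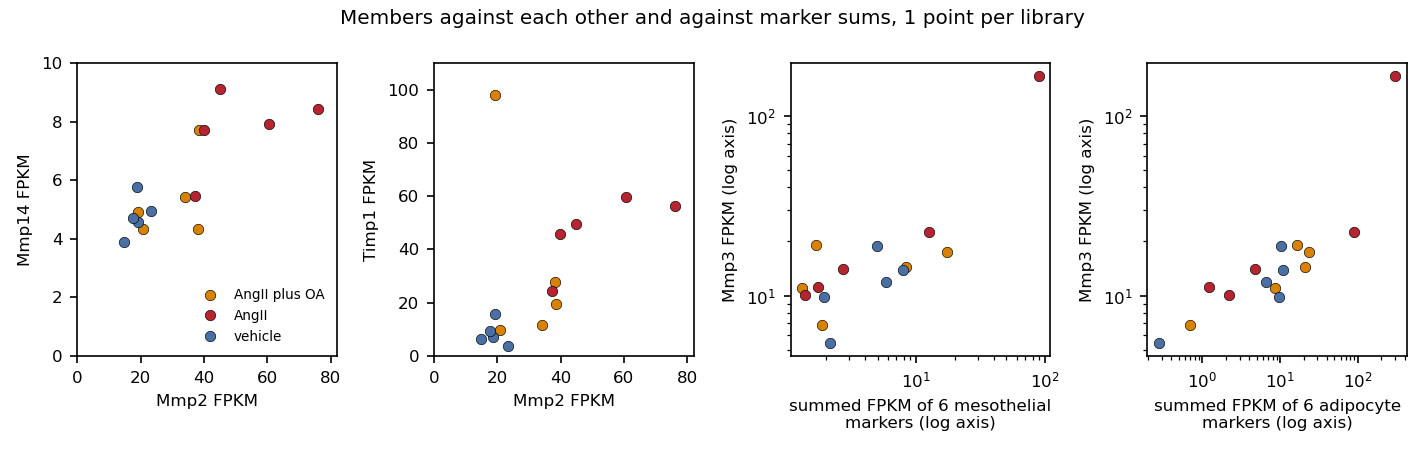
Levels in the 15 libraries, 1 point each: Mmp14 and Timp1 against Mmp2 (linear FPKM axes), and Mmp3 against the summed FPKM of 6 mesothelial and 6 adipocyte markers (log axes), coloured by AngII plus OA, AngII and vehicle. Timp1 of AngII plus OA replicate 2 (97.9 FPKM) lies off the trend with Mmp2, and AngII replicate 2 is the extreme point for Mmp3 (166 FPKM) and both marker sums.

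The genes most like each of the 7 were taken as those with the highest Pearson r of log2(FPKM + 1) over the 15 libraries. Mmp2 was closest to Ctsk (r = 0.974), which encodes the collagen-degrading protease cathepsin K, then to Adamts2 (0.959) and Itgbl1 (0.954). Timp1 was closest to Chd9 (0.922), Slc39a1 (0.901) and Syt12 (0.895), and with group means taken out to Star (0.862), Cd44 (0.857) and Ankrd2 (0.809). For Star, Cd44 and Ankrd2 the Spearman rho was 0.711, 0.789 and 0.661. These values were not computed without AngII plus OA replicate 2, where Timp1 was far above its group, so they may rest on that library. Timp2 was closest to Cpq (0.922), Sdf4 (0.904) and Npc2 (0.903). Mmp14 was closest to Ppic (0.947), Adam10 (0.93) and Grn (0.918). Timp3 was closest to Rtca (0.948), Klf9 (0.933) and Cds2 (0.93), and Timp4 to Slc25a5 (0.874), Car4 (0.868) and Sema7a (0.864). The genes closest to Mmp3 were Ece1 (0.974), Kank1 (0.957) and Igfbp4 (0.952), and without AngII replicate 2 these came to 0.899, 0.788 and 0.836. All of these values describe the same 15 libraries and have no test.

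Other genes of the protease system were counted in 8 lists, of which 63 genes were high enough to test. In AngII against vehicle, 3 of the 63 were called, all higher, beside 1.27% of all genes, and 47 had a positive change, beside 65.7% of all genes, with a median of 0.18 beside 0.07 over all genes. In the ADAMTS list, Adamtsl2 and Adamts2 rose among 13 tested. Adamtsl2, a matrix glycoprotein that binds fibrillin, averaged 7.60 ± 2.60 FPKM in AngII and 2.02 ± 0.660 FPKM in vehicle (SD, n = 5 each), a log2 change of 1.48 (limma, adjusted p = 0.0163). Adamts2, which cuts the amino propeptide from procollagen, averaged 5.95 ± 1.51 FPKM in AngII and 2.40 ± 0.327 FPKM in vehicle, a change of 1.01 (limma, adjusted p = 0.0114). Both were called in each of the 15 fits that left out 1 library. Among 14 other inhibitors, activators and receptors, Lrp1, an endocytic receptor that takes up metalloproteinases and TIMPs, rose to 13.7 ± 2.98 FPKM in AngII, against 7.77 ± 1.04 FPKM in vehicle, a change of 0.73 (limma, adjusted p = 0.0335). The Lrp1 call was lost in 6 of the 15 fits that left out 1 library (AngII replicate 4 or 5, or vehicle replicate 1, 2, 4 or 5), with an adjusted p of at most 0.0887. It was also lost with no filter, after quantile normalization, after rescaling without mitochondrially encoded genes and with only the 10 libraries compared (limma, adjusted p of 0.0607 to 0.0821).

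The remaining lists had no called gene by limma in AngII against vehicle, and 14 of their 36 tested genes had an unadjusted p under 0.05, beside 16.6% of all genes. Of the 15 other soluble metalloproteinases 5 were high enough to test, and the most abundant, Mmp23 and Mmp11, averaged 6.11 ± 1.89 and 2.66 ± 0.508 FPKM in AngII, against 4.66 ± 1.09 and 2.55 ± 0.772 FPKM in vehicle (SD, n = 5 each). The one other membrane-type enzyme tested, Mmp15, averaged 9.70 ± 4.64 FPKM in AngII and 13.9 ± 2.93 FPKM in vehicle (limma, adjusted p = 0.370). AngII replicate 2 lowered that mean: it stood at 1.83 FPKM, and the rest of the AngII libraries ran from 9.47 to 13.0 FPKM. The vehicle libraries ran from 11.7 to 18.8 FPKM. Of 6 ADAM proteases, which shed proteins from the cell surface, the most abundant were Adam15, with a change of 0.47, and Adam10, with a change of 0.39 (limma, adjusted p = 0.224 and 0.0963). In the plasminogen activator system, whose product plasmin can activate pro-MMPs, Plgrkt, a plasminogen receptor, had a change of -0.000277. Among inducers and transcription factors, Egr1 averaged 14.1 ± 11.0 FPKM in AngII and 36.5 ± 20.1 FPKM in vehicle (limma, adjusted p = 0.215), and Junb averaged 21.6 ± 12.5 FPKM in AngII and 27.2 ± 9.98 FPKM in vehicle.

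In AngII plus OA, no gene of the 8 lists was called by limma against AngII or against vehicle, and 9 of 63 had an unadjusted p under 0.05 in each comparison, beside 6.6% of all genes against AngII and 3.36% against vehicle. The genes that rose in AngII had negative changes against AngII that missed the threshold: Adamtsl2 -0.84, Adamts2 -0.57 and Lrp1 -0.46, each on the log2 scale. They were picked for high values in these same AngII libraries, so a negative change was favoured by the choice and is no separate result. Of all genes tested, 63.4% had a negative change in this comparison.

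Of the TIMP genes, 3 lie inside a synapsin gene on the opposite strand: Timp1 in Syn1, Timp3 in Syn3 and Timp4 in Syn2. The strand setting of the authors' counting is not stated in these sources, so reads from shared bases could fall to either gene. Timp1 shares no exon base with Syn1, Timp4 shares 1.53% of its exon bases with Syn2, and Timp3 shares 21.3% with Syn3. The synapsin genes, which encode proteins of synaptic vesicles, were low: Syn1 reached at most 0.198 FPKM, Syn3 0.129 FPKM and Syn2 1.35 FPKM, all below the lowest level of the TIMP gene inside them. Syn2, the one high enough to test, had a change of 0.34 in AngII against vehicle (limma, adjusted p = 0.229).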

How the data were processed

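RNA from mouse ventricle was enriched with oligo(dT) and sequenced on an Illumina HiSeq2000, per the labels' protocols. Reads were aligned with HISAT2 2.0.4 and the build is named mm8, per the submitters' processing notes. The sources used here do not name the counting tool, its strand setting or the annotation. The authors deposited 1 table of FPKM values per gene, 15 columns in 3 groups, and every column was used. Identifiers were paired with symbols by GENCODE M21 (GRCm38), which matched 36464 of 36653. The same annotation gave exon lengths and which genes overlap, and none of its coordinates is printed. Promoter sequences are RefSeq's, build GRCm38.p6. Levels were analysed as log2(FPKM + 1) with limma 3.58.1 in R 4.3.3 (intensity trend), over genes with a mean of at least 0.5 FPKM, Benjamini-Hochberg adjusted per comparison; intervals are 95% and cover 1 gene each. The fit was tested on simulated data.

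Of values worth under 200 reads, 88.7 to 89.9% were whole reads within 0.02, which gave the depth. Mitochondrially encoded genes held 42.4 ± 3.10% of summed FPKM in AngII plus OA, 41.1 ± 5.20% in AngII and 47.1 ± 2.52% in vehicle (SD, n = 5 each), which lowers the FPKM of other genes where it is high. None of the 30 replicate pairs agreed within sampling noise (chi-square per degree of freedom of recovered reads, at least 28.4). All 7 genes are named, with the called genes of each list by size of change, or its 2 most abundant where none was called; Adamtsl2, Adamts2 and Lrp1 are the called ones. A gene that this rule names is not reported here. Fos and Jund were named after their values were seen. The 7 genes and all lists were chosen with earlier results of these data known, so no p was adjusted over a list. Alternatives varied the pseudocount, filter, scaling, libraries, replicate block and limma settings.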

Additional observations from a re-analysis of the deposited data

Results flagged for a closer look

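Within groups of 5 libraries, 45 sets of values were screened by the gap between an extreme library and its neighbour, as a share of the group's range, with a limit of 0.71; chance passes about 1 set in 20, and 8 passed. Of these, 2 are levels of single genes: Timp1 in AngII plus OA, where replicate 2 was highest at 97.9 FPKM (0.798 of the range), and Mmp3 in AngII, where replicate 2 was highest at 166 FPKM (0.92). The other 6 are sums, ratios and shares, several built on the same 2 values. In AngII, replicate 2 had the highest sum of Mmp2, Mmp3 and Mmp14, 235 FPKM (0.781), and the highest ratio of that sum to the TIMP sum, 1.93 (0.747). In AngII plus OA, replicate 2 had the lowest such ratio, 0.212 (0.749), the highest Timp1 share of the TIMP sum, 67.4% (0.758), and the lowest Timp2 share, 14.0% (0.73). In vehicle, replicate 1 had the highest Timp4 share, 40.3% (0.752).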

How the results depend on the processing

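In AngII against vehicle, 2 of the 7 genes were called. The number was 1 with no filter on low values, where Timp1 had a limma adjusted p of 0.0750, and 1 to 3 over the fits that left out 1 library. Over all genes, 197 were called; the number was 72 with no filter, 109 after quantile normalization, 114 after rescaling without mitochondrially encoded genes, 70 with only the 10 libraries compared, and 49 to 427 when 1 library was left out. The split of higher and lower calls was 166 to 31, and it was 69 to 40 after quantile normalization, 103 to 57 with each library shifted to 1 median and 77 to 37 after the mitochondrial rescaling. Timp1 and Mmp2 were called under each of these 3 scalings. In AngII plus OA against AngII, 0 to 1 genes were called when 1 library was left out, and none of the 7; against vehicle, 0 in each such fit.

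The replicate numbers 1 to 5 are shared by the groups but did not pair the libraries throughout: 2 of 5 pairs had a correlation over 0.1 in each comparison. Same-numbered libraries had correlations of -0.223 to 0.435 in AngII plus OA and AngII, -0.35 to 0.259 in AngII plus OA and vehicle and -0.228 to 0.211 in AngII and vehicle; 2, 1 and 0 of 5 correlated best with their own number. With the number as a replicate block, 0 of the 7 genes were called in AngII against vehicle (limma adjusted p of 0.0552 for Timp1 and 0.0502 for Mmp2) and 38 of all genes; Adamts2 kept its call, and Adamtsl2 (0.0533) and Lrp1 (0.0861) did not.

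Signs turned in 4 values of AngII plus OA. Timp4 in AngII plus OA against AngII, -0.00343, was 0.00936 with a pseudocount of 0.1, 0.00321 with 0.5, 0.0780 after quantile normalization and 0.0574 with each library shifted to 1 median. When 1 library was left out it ran from -0.35 to 0.20, Timp3 in the same comparison, -0.17, ran from -0.40 to 0.00500, and against vehicle Timp3, 0.31, ran from -0.0946 to 0.58 and Mmp3, 0.20, from -0.0226 to 0.41; Timp3 turned without vehicle replicate 2 and Mmp3 without vehicle replicate 1. The cause of these shifts was not tested. The lowest number of reads behind a value whose reads came out whole was 85, for Timp1 in a vehicle library, which limits its precision.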
